A study of Mus musculus with 48 samples.

Results

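The liver genes Hsd17b6, Mup3, Mup20, Selenbp2, Sult5a1, Slc22a27, Hsd3b5 and Elovl3, were followed in RNA and in ribosome footprints of the same mice. They are 8 of the 20622 genes with an RNA row in the tables. They were chosen by large RNA loss or a large difference in translation efficiency (TE, footprints per RNA) from wild type in one group, BM at day 10, with Hsd3b5, Elovl3 and Mup20 set beside the others as genes that depend on growth hormone. The values of BM against WT at day 10 therefore chose the genes and are given below as a description, with no test.

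The 24 mice were males of 2 to 4 months and at least 20 g, and every one of them, WT included, received AAV8.TBG.Cre, in which the TBG promoter limits Cre to hepatocytes. WT mice carried no recombined allele, B mice carried Ctnnb1ex3/+, M mice carried R26-LSL-MYC, and BM mice carried both. Livers were taken 4 or 10 days after the virus, from 3 mice for each genotype and day. Each liver gave 1 footprint library and 1 cytoplasmic RNA library, so 48 libraries were used. In whole liver, fewer hepatocytes and less RNA per hepatocyte cannot be told apart.

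Footprint libraries held 9742197 to 14380713 counts on coding sequences and RNA libraries 3254141 to 6540116 estimated counts. RNA of Glul, a direct target of beta-catenin, was between 2001 and 6365 CPM (counts scaled to library size) in B and BM mice and at most 810.4 CPM in WT and M mice. RNA of endogenous Myc overlapped between WT and M mice on both days, and this annotation may not count the human transgene. The 6 hepatocyte markers summed to between 93300 and 94300 CPM in WT and to between 24200 and 27600 CPM in BM at day 10. Over the same mice the 7 Kupffer cell markers summed to 269 to 323 CPM in WT and 323 to 371 CPM in BM, the 6 endothelial markers to 398 to 427 and 249 to 304, and the 6 stellate markers to 421 to 485 and 194 to 223. The 5 cholangiocyte markers summed to 84.7 to 142 CPM in WT and 104 to 131 CPM in BM, and the 5 blood markers to 303 to 485 and 157 to 597. No marker of these lists was at 0 in all WT or all BM mice at day 10, and the part of cell makeup in the results below was not tested.

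In male mice the pituitary releases growth hormone in pulses, and each pulse activates STAT5b in hepatocytes, which keeps a set of male-biased liver genes on. Major urinary proteins (Mup) are small lipocalins that hepatocytes secrete in large amounts, and they carry pheromones into urine. Many of these genes sit in clusters of recent duplicates, so that a short footprint can match more than 1 gene. A footprint count and an RNA count of such a gene then depend on how each read was assigned.

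The 8 genes differ in how much of their coding sequence other genes share, and the sequences that carry this are given first. The coding sequence was cut into all windows of 33 nt, about the length of a footprint, and matched to other transcripts. No window of Sult5a1, of 841, had a match within 3 mismatches, and Elovl3 had 1 of 712. In Hsd17b6, 216 of 919 windows (23.5%) were identical in another gene. The share was 41.2% in Mup3, 45.3% in Hsd3b5, 53.1% in Slc22a27, 68.6% in Selenbp2 and 93.3% in Mup20. Allowing 3 mismatches, it reached 27% in Hsd17b6, 93.5% in Hsd3b5, 96% in Mup3, 99.1% in Slc22a27, and all windows of Mup20 and Selenbp2.

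**Figure D1:**
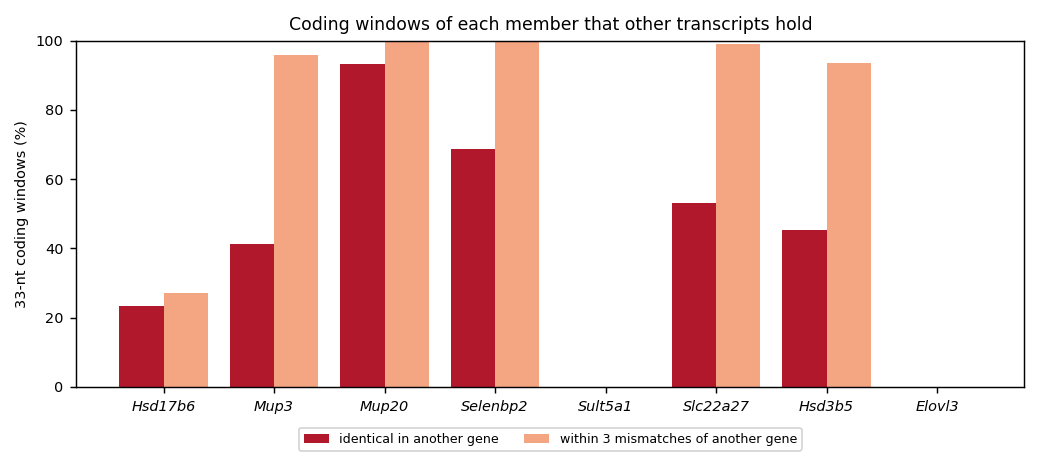
Share (%) of the 33-nt coding windows of each gene found in another gene, identical (dark bars) or within 3 mismatches (light bars). Sult5a1 and Elovl3 share almost nothing, Hsd17b6 shares 23.5% identically, and Mup20 and Selenbp2 share every window within 3 mismatches.

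Hsd17b6 (ENSMUSG00000025396.8) lies on the minus strand at chr10:127826802-127843497 (GRCm39). Its longest exact run with Rdh1 and Rdh16f1, retinol dehydrogenase-type genes, spans 248 coding bases at chr10:127833575-127833822, within 1 coding exon. Capitals mark the bases that Rdh9 also holds in 1 unbroken run.
Hsd17b6: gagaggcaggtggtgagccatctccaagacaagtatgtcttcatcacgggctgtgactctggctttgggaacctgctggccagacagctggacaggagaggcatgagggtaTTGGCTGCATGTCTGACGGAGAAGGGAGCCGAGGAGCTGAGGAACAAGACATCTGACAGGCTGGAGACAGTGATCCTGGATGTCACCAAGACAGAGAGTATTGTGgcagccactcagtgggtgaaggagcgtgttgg

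Selenbp2 (ENSMUSG00000068877.13, plus strand, chr3:94600863-94611720) and Selenbp1 were identical at 1398 of 1416 coding bases. The pair below is the stretch of 60 bases in which they differ most, among the stretches that start at a codon. It lies at chr3:94605380-94605439 for Selenbp2, in a coding exon, and capitals mark the 4 differing bases.
Selenbp2: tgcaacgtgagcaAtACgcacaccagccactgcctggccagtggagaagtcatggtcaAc
Selenbp1: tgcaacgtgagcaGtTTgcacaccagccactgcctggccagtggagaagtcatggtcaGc

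Slc22a27 (ENSMUSG00000067656.14, minus strand, chr19:7841301-7943962) and Slc22a29 were identical at 1608 of 1653 coding bases. Among stretches of 60 bases that start at a codon, their most different, at chr19:7887144-7887203, holds 7 differences, in capitals.
Slc22a27: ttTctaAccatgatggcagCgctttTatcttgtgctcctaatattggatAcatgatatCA
Slc22a29: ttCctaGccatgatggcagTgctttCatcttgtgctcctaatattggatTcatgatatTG

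Mup3 (ENSMUSG00000066154.12) lies on the minus strand at chr4:61947447-62005620, and in the annotation used here its span contains Mup20 (ENSMUSG00000078672.3, chr4:61968464-61972395) on the same strand. Both genes hold the run of 60 coding bases below, in a coding exon of Mup3 at chr4:62003470-62003529, and the run is all in lower case because no base differs.
Mup3 and Mup20: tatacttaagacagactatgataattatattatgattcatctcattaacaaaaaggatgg

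Sult5a1 (ENSMUSG00000000739.15) lies at chr8:123866931-123885779 on the minus strand, Hsd3b5 (ENSMUSG00000038092.7) at chr3:98525941-98553068 on the minus strand, and Elovl3 (ENSMUSG00000038754.6) at chr19:46119917-46124133 on the plus strand. Hsd3b5 overlaps Zfp697 on the opposite strand, whose RNA was at most 2.277 CPM, and Elovl3 overlaps Pitx3, which had no RNA count in any mouse. Promoters (250 bases before to 50 after the start, RefSeq, GRCm38.p6) were at hand for 6 of the 8 genes. None of the 7 windows held TTCNNNGAA, the letters bound by STAT5, CTTTGAT (TCF/LEF) or CACGTG (MYC E-box) on either strand. Of 32851 promoters in that table, 8.3%, 3.73% and 7.15% held them.

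In BM livers at day 10 the 8 genes fell into 4 patterns. Hsd17b6, Mup3 and Mup20 had far lower RNA than in WT with footprints lowered less. Selenbp2 and Sult5a1 had footprints lowered far more than RNA. Slc22a27 had lower RNA and higher footprints. Hsd3b5 and Elovl3 were nearly gone in both.

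**Figure D2:**
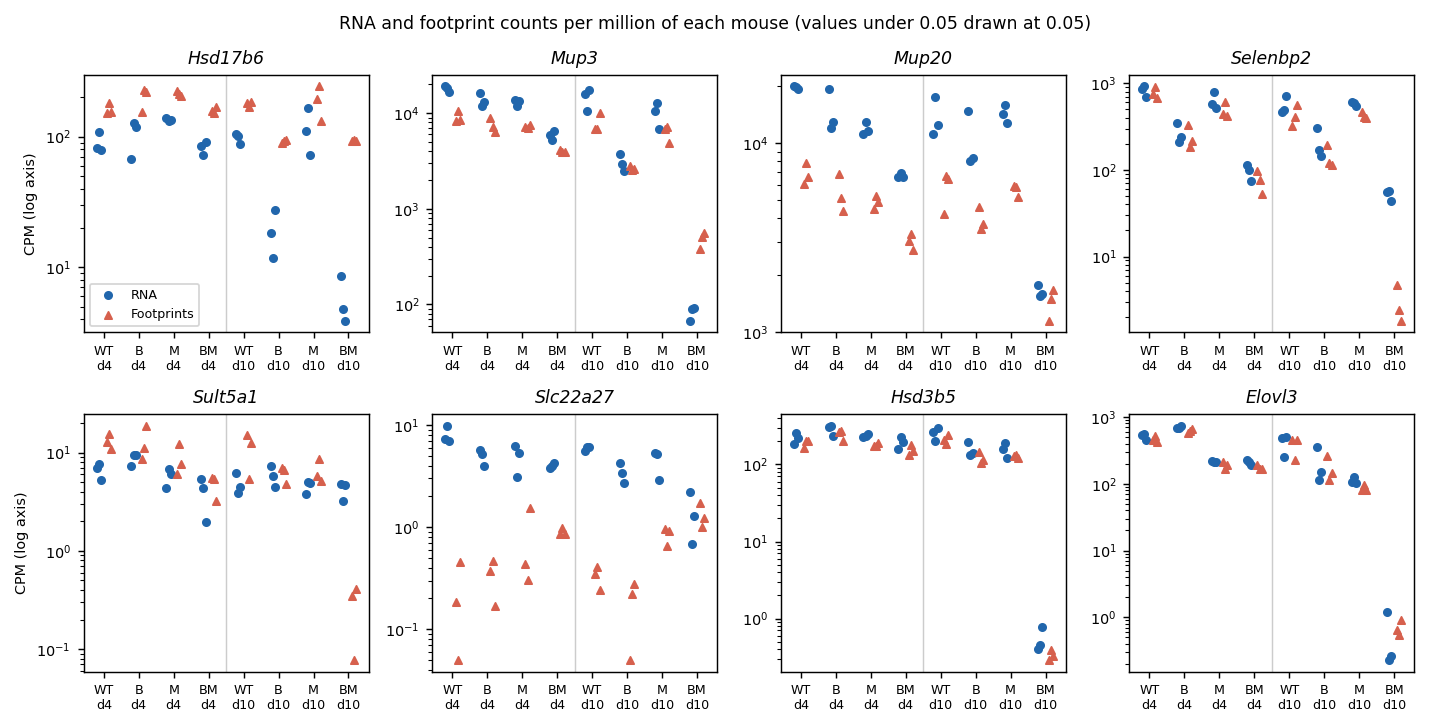
RNA (circles) and footprint (triangles) CPM of each of the 24 mice on a log axis, by genotype and day (d4, d10), with 3 mice a group. In BM at day 10, Hsd17b6 footprints stayed at 92.1 to 94.3 CPM while its RNA was 3.9 to 8.55 CPM, and Hsd3b5 and Elovl3 fell below 1.2 CPM in both.

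Hsd17b6 encodes an enzyme that oxidises steroids and retinoids. Its RNA was 104, 102 and 88.1 CPM in the WT mice at day 10 and 8.55, 4.82 and 3.9 CPM in the BM mice, while its footprints were 180, 168 and 183 CPM in WT and 92.8, 94.3 and 92.1 CPM in BM. The groups did not overlap in either measure. RNA stood at 5.87% and footprints at 52.6% of the WT mean, and log2 TE per mouse was 0.79, 0.72 and 1.05 in WT and 3.42, 4.26 and 4.52 in BM. The fitted log2 difference of TE was 3.10. Without BM mouse 1, which had the highest RNA of the 3, it was 3.54.

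Mup3 RNA was 16040, 10630 and 17520 CPM in WT at day 10 and 67.8, 89.7 and 92.5 CPM in BM. Its footprints were 6909, 6816 and 10100 CPM in WT and 378, 511 and 554 CPM in BM. Both measures were thus far apart between the groups, at 0.566% of WT for RNA and 6.05% for footprints, with a log2 TE difference of 3.39. Mup20, which encodes darcin, a pheromone that attracts females to male urine, was less reduced. Its RNA was 11160, 17520 and 12510 CPM in WT and 1768, 1559 and 1598 CPM in BM. Its footprints went from 4197, 6729 and 6438 CPM to 1151, 1506 and 1678 CPM, so that 12% of WT RNA and 25% of WT footprints were left and log2 TE was 1.03 higher.

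Selenbp2, a selenium-binding protein of liver, showed the opposite order. Its RNA was 468, 489 and 719 CPM in WT and 56, 57.8 and 43.6 CPM in BM at day 10. Its footprints were 319, 405 and 568 CPM in WT and 4.64, 2.41 and 1.82 CPM in BM, from 80, 31 and 22 counts. RNA stood at 9.4% and footprints at 0.686% of WT, with a log2 TE difference of -3.77, which was -4.22 without BM mouse 1. Sult5a1, a member of the cytosolic sulfotransferases, was measured on few reads. Its RNA counts were 30, 20 and 18 in WT and 24, 14 and 18 in BM, which overlapped. Its footprint counts were 172, 53 and 105 in WT and 6, 1 and 5 in BM, which did not. Pooled over mice, Sult5a1 footprints in BM were 0.0254 times those in WT (95% exact binomial interval 0.013 to 0.045) and RNA 0.872 times (0.601 to 1.26), and this and the other intervals of pooled counts given for BM at day 10 cover counting error only, not the spread between the 3 mice, and are no test.

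Slc22a27, a member of the organic ion transporter family Slc22a, was near the lower limit of the footprint libraries. Its RNA counts were 27, 31 and 25 in WT and 11, 3 and 5 in BM at day 10, and its footprint counts were 4, 4 and 2 in WT and 30, 13 and 15 in BM. Pooled, RNA was 0.242 times WT (95% counting interval 0.139 to 0.403) and footprints 4.06 times (2.06 to 8.9). The fitted log2 TE difference of 3.97 rests on these counts.

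Hsd3b5, a male-specific 3-ketosteroid reductase, and Elovl3, an elongase of very-long-chain fatty acids, lost RNA and footprints together. Hsd3b5 RNA counts were 1292, 1024 and 1206 in WT and 2, 2 and 3 in BM, and its footprint counts were 2345, 1829 and 1989 in WT and 5, 5 and 4 in BM. Pooled, its RNA was 475 times lower (95% counting interval 230.5 to 1183) and its footprints 629 times lower (375 to 1152). Elovl3 RNA counts were 2379, 1270 and 2027 in WT and 6, 1 and 1 in BM. Its footprint counts were 5215, 2180 and 3804 in WT and 11, 7 and 11 in BM. Elovl3 was thus 670.4 times lower in RNA (counting interval 340 to 1554) and 552 times lower in footprints (384 to 825). The fitted log2 RNA change of Elovl3 was -9.36, and -10.6 without BM mouse 1. Their log2 TE differences were -0.40 and 0.29, and that of Elovl3 was 1.61 without BM mouse 1, which held 6 of the 8 RNA counts, and -0.20 without BM mouse 3.

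**Figure D3:**
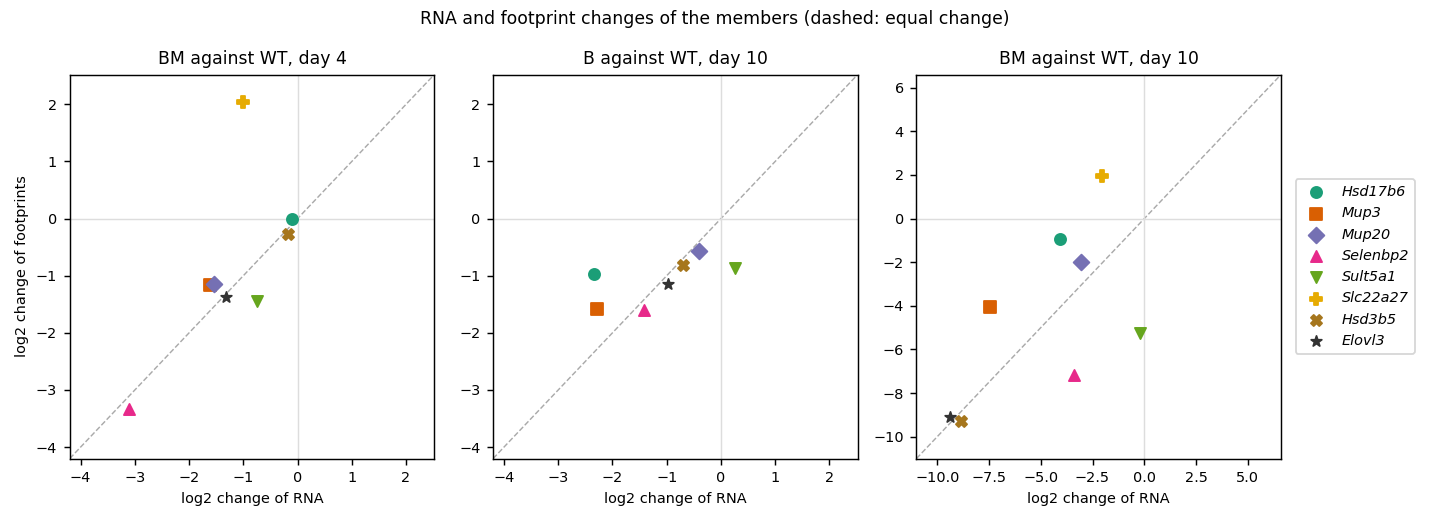
log2 change of footprints (vertical axis) against log2 change of RNA (horizontal axis) for each gene in 3 comparisons with WT, with equal change on the dashed line. Genes above the line have higher TE than WT: at day 10 in BM these were Hsd17b6, Mup3, Mup20, Slc22a27 and, by little, Elovl3.

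The other comparisons were not used to choose the genes and were tested. Those at day 4 share no mouse with the choice. Those at day 10 and between the days reuse the WT mice of day 10. The values of these WT mice entered the choice, so such calls are not independent of it. At day 4, 6 of the 8 genes had lower RNA in BM than in WT (adjusted p under 0.1, edgeR quasi-likelihood test), where 41.9% of all tested genes were called. Selenbp2 fell furthest, from 854, 924 and 699 CPM in WT to 113, 99.4 and 75 CPM in BM, a log2 change of -3.10 ± 0.15 (SE, adjusted p = 1.6e-08). Mup3 RNA changed by -1.61, Elovl3 by -1.32, Mup20 by -1.55, Slc22a27 by -1.01 and Sult5a1 by -0.76. The call of Sult5a1 was lost under DESeq2 (adjusted p = 0.125) and when any of 4 mice, WT 1, WT 2, BM 2 or BM 3, was left out (adjusted p between 0.108 and 0.253). Hsd17b6 RNA, at 81.3, 108 and 78.7 CPM in WT and 84.5, 72.1 and 91.7 CPM in BM, overlapped between the groups at this day. Hsd3b5 RNA also overlapped, at 183, 254 and 222 CPM in WT and 161, 228 and 195 CPM in BM.

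In footprints, 7 of 8 genes were past the threshold in BM at day 4, against 50.9% of all genes. One of the 7, Slc22a27, passed the filter on low counts only through the BM mice, where it is high, so its values are a description and its call is no support. It had 2, 0 and 4 footprint counts in WT and 14, 15 and 13 in BM. The other 6 were lower. Selenbp2 fell by 3.33, Sult5a1 by 1.44, Elovl3 by 1.38, Mup3 by 1.16, Mup20 by 1.15 and Hsd3b5 by 0.27 on the log2 scale. The call of Hsd3b5 was lost without WT mouse 2 or 3 or BM mouse 1 or 3 (adjusted p between 0.189 and 0.258). For TE, where 2.23% of all genes were called, Slc22a27 (fitted log2 difference 3.02) was past the threshold on the same counts, with the same limit. Of the other 7 genes, edgeR and DESeq2 called 0, with 2, Mup3 and Mup20, at an unadjusted p under 0.05. With the RNA and footprint libraries of a mouse joined in the fit, 2 of these 7 were called, against 6.17% of genes, Mup3 (0.45, adjusted p = 0.00912) and Mup20 (0.39, adjusted p = 0.0162). The direction of the Mup3 and Mup20 differences was that seen in BM at day 10.

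At day 10 in B mice, which carry the beta-catenin allele alone, Hsd17b6 and Mup3 had lower RNA with footprints lowered less. The WT mice here are the same as in BM against WT at day 10, the comparison that chose the genes. Hsd17b6 RNA was 18.4, 11.7 and 27.6 CPM and its footprints were 89.2, 92 and 93.7 CPM, next to the 92.1 to 94.3 CPM of the BM mice. Its RNA changed by -2.34 ± 0.24 (adjusted p = 1.2e-04) and its footprints by -0.96 ± 0.10 (adjusted p = 4.8e-04) on the log2 scale. Mup3 RNA, 3712, 2922 and 2459 CPM in B, changed by -2.28 ± 0.26 and its footprints by -1.59 ± 0.18. In all, 5 of 8 genes had lower RNA in B, against 15.6% of genes called, the others being Selenbp2 (-1.42), Slc22a27 (-0.78) and Hsd3b5 (-0.70).

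Of these RNA calls, that of Slc22a27 was lost under DESeq2 (adjusted p = 0.22) and without any 1 of 5 of the 6 mice, all but B mouse 1. It was also lost with the replicate number as a block (0.108), without the low-count filter (0.104) and with the counted isoform alone (0.259). The RNA call of Hsd3b5 was lost without WT mouse 1, WT mouse 3 or B mouse 2. In footprints, 6 of the 7 tested genes fell in B at day 10, against 25.2% of genes: Hsd17b6, Mup3, Selenbp2 (-1.60), Elovl3 (-1.14), Hsd3b5 (-0.81) and Mup20 (-0.57). The last, with an adjusted p of 0.0785, was lost with the replicate number as a block (0.138) and without WT mouse 2 or 3 or B mouse 2 or 3. The call of Elovl3 was lost without WT mouse 1, WT mouse 3 or B mouse 2 (adjusted p between 0.146 and 0.167). Slc22a27, with 0 to 4 footprint counts a mouse in B and 2 to 4 in WT at day 10, was not tested. Elovl3 RNA in B, 361, 114 and 153 CPM, was set against 493, 249 and 498 CPM in WT and did not pass the test.

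For TE in B at day 10, edgeR called 0 of 7 genes, against 0.0564% of all genes, although 3 had an unadjusted p under 0.05 and DESeq2 called Hsd17b6. With the libraries of a mouse joined, 3 of 7 were called, against 2.6% of genes. Hsd17b6 TE was higher (1.41 ± 0.18, adjusted p = 3.2e-05) and so was Mup3 TE (0.70 ± 0.15, adjusted p = 0.012). The sums of each with its relatives of like coding sequence, of which Hsd17b6 and Mup3 are a small share, gave -0.21 and -0.23. In the joined fit Sult5a1 TE was lower (-1.09 ± 0.29, adjusted p = 0.0493). log2 TE of Hsd17b6 was 2.27, 2.97 and 1.76 in the B mice, all above the WT range of 0.72 to 1.05. log2 TE of Sult5a1 was -0.08, 0.19 and 0.09 in B and 1.26, 0.45 and 1.48 in WT, also without overlap.

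**Figure D4:**
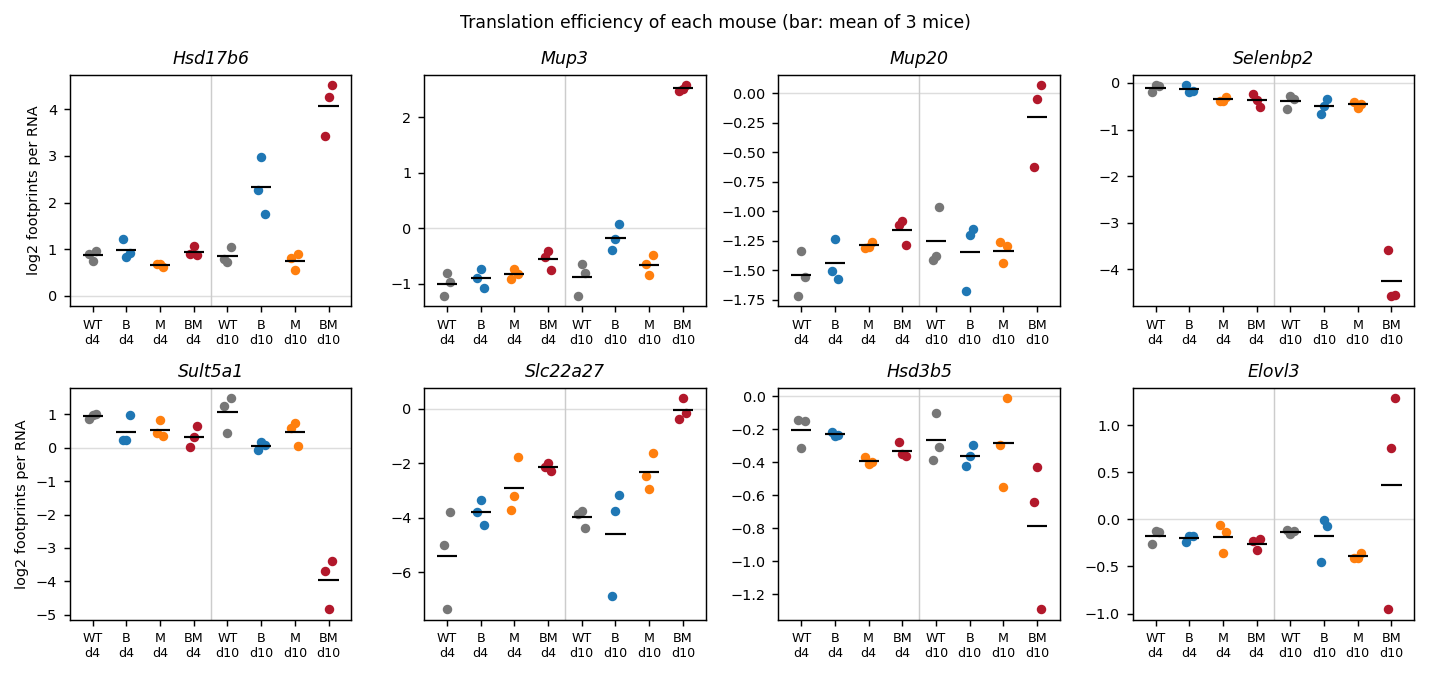
log2 TE (footprint CPM over RNA CPM, 0.5 count added to each) of every mouse, by genotype and day, with the mean of 3 mice as a bar. Hsd17b6 stood between 1.76 and 4.52 in B and BM at day 10 and at most at 1.21 in the other groups, and Sult5a1 and Selenbp2 dropped to between -4.84 and -3.4 in BM at day 10.

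In B mice at day 4, Selenbp2 was lower and Elovl3 higher than in WT. RNA of 2 of 8 genes was called, against 8.14% of genes, and footprints of 2 of 7, against 12.5%. They were in both cases Selenbp2, lower (RNA -1.64 ± 0.17, footprints -1.67 ± 0.20), and Elovl3, higher (RNA 0.43 ± 0.10, footprints 0.39 ± 0.10). Without B mouse 1 the number called was 5 in RNA and 5 in footprints. Without WT mouse 3 it was 1 in both, and without WT mouse 1 it was 1 in footprints. TE was called for 0 of 7 by edgeR and by DESeq2, with none under an unadjusted p of 0.05, against 0.0488% of genes.

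The change between days 4 and 10 in the effect of the B allele was tested as an interaction. It was called for 4 of 8 genes in RNA, against 9.31% of genes, and for 4 of 7 in footprints, against 17.2%. Hsd17b6 RNA had a B effect of 0.21 at day 4, which did not pass the test, and of -2.34 at day 10, a difference of -2.56 ± 0.35 in RNA (adjusted p = 3.3e-04) and -1.26 ± 0.18 in footprints. Mup3 differed by -1.90 and -1.29, Hsd3b5 by -1.10 and -1.17, and Elovl3 by -1.42 and -1.53. The call of Elovl3 RNA was lost under DESeq2 (adjusted p = 0.178) and without any 1 of 9 of the 12 mice, all but WT mouse 2 of either day and B mouse 1 of day 10 (adjusted p between 0.103 and 0.161). TE was called for 0 of 7 and for 0% of all genes by edgeR, with 1 of 7 at an unadjusted p under 0.05, and for 0 of 7 by DESeq2. With the libraries of a mouse joined it was called for Hsd17b6 (1.31 ± 0.24, adjusted p = 0.0146), where 0.0647% of genes were called.

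M mice, with the MYC allele alone, gave no TE call among these genes on either day. At day 4, 6 of 8 genes were called in RNA, against 23.7% of genes, and 5 of 7 in footprints, against 33.3%. Elovl3 fell most, from 546, 562 and 459 CPM of RNA in WT to 223, 212 and 211 CPM in M (-1.28 ± 0.10, adjusted p = 5.9e-06), and its footprints changed by -1.25. Hsd17b6 rose, by 0.59 in RNA and 0.43 in footprints. Mup20 (-0.73 and -0.46), Mup3 (-0.47 and -0.28) and Selenbp2 (-0.40 and -0.62) fell in RNA and footprints, and Slc22a27 in RNA (-0.75). The RNA call of Slc22a27 was lost under DESeq2 and without WT mouse 1, 2 or 3 or M mouse 2, and that of Selenbp2 without WT mouse 1 or 2 or M mouse 1 or 3. The footprint call of Mup3 was lost without WT mouse 2 or M mouse 1 or 2. TE was called for 0 of 7 by edgeR and by DESeq2, with none under an unadjusted p of 0.05, against 0.971% of genes.

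At day 10, 2 of 8 genes were called in M, both lower, in RNA (15.7% of genes) and, of 7 tested, in footprints (19.4%). The WT mice of this comparison also entered the choice of the genes. Elovl3 RNA was 106, 125 and 104 CPM, a change of -1.88 ± 0.23, with -2.15 in footprints. Hsd3b5 changed by -0.69 in RNA and by -0.73 in footprints, and its RNA call was lost without WT mouse 3 (adjusted p = 0.128) or M mouse 1 (0.118). TE was called for 0 of 7 and 0% of genes by edgeR, with none of the 7 under an unadjusted p of 0.05, and for 0 of 7 by DESeq2. The M effect differed between the days for Hsd3b5 footprints alone, 1 of 8 (-0.68 ± 0.15, adjusted p = 0.072), against 1.18% of genes, and that call was lost without any 1 of 9 of the 12 mice, all but WT mouse 2 of either day and M mouse 3 of day 10 (adjusted p between 0.112 and 0.202). In RNA it was called for 0 of 8, against 1.2% of genes, with 3 at an unadjusted p under 0.05 and 2, Mup20 and Hsd3b5, by DESeq2. For TE it was 0 of 8 and 0% of genes, with none at an unadjusted p under 0.05 and none by DESeq2.

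Without any allele, WT mice at day 10 against day 4 gave 0 of 8 genes called in RNA, against 2.32% of genes, with 2 at an unadjusted p under 0.05 and 2, Mup20 and Selenbp2, by DESeq2. Selenbp2 footprints were lower (-0.84 ± 0.19, adjusted p = 0.0402), 1 of 7 against 4.44% of genes. Left out, either of WT day 4 mice 1 and 2 ended that call (adjusted p = 0.124 and 0.118). TE was called for 0 of 7 by edgeR and by DESeq2, with none at an unadjusted p under 0.05, against 0.501% of genes.

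The values of the genes that share coding sequence with each member stood beside these differences. In WT at day 10 Rdh9 had 19.1 ± 6.6 CPM of RNA (SD, n = 3) and 78.8 ± 12.4 CPM of footprints, and in BM 168 ± 65.9 and 174 ± 14. Rdh16f1 RNA went from 20 ± 6.35 to 151 ± 57.6 CPM, and to 127 ± 18 CPM in B, with 0 footprint counts in all those libraries. Rdh7, the most abundant of the 7 relatives of Hsd17b6, had 701 ± 115 CPM of RNA and 1028 ± 131 CPM of footprints in WT, and 290.2 ± 50.2 and 542 ± 30.1 CPM in BM. Rdh16 was at 65 ± 25 CPM of RNA in WT and 120 ± 4.5 CPM in BM, and Rdh16f2 at 55.7 ± 3.16 and 12.1 ± 2.41 CPM. Rdh1 RNA was 10.2 ± 2.95 CPM in WT and 6.96 ± 2.35 CPM in BM, and Rdh19 RNA 7.26 ± 2.12 and 4.43 ± 1.34 CPM. Rdh9 and Rdh16f1 each hold one of the identical coding runs printed above, and the part of their reads in the footprints of Hsd17b6 was not tested. Selenbp1 had 322 ± 54.1 CPM of RNA and 1442 ± 265 CPM of footprints in WT, and 156 ± 16.1 and 531 ± 90.3 CPM in BM. Of the 20 other Mup genes, 4 had an RNA count of at least 100 in some mouse and no footprint count in any, and Mup22 carried 121269 to 190309 footprint counts in each WT mouse at day 10. Slc22a30, which matches 63.2% of Slc22a27 windows, went from 283 ± 13.1 to 14.8 ± 8.1 CPM of RNA. Slc22a29 matches more of them (96.5%), and its own values are not given here. Footprints of Slc22a27 summed with its 5 relatives went from 236 ± 16.6 CPM in WT to 19 ± 5.75 CPM in BM at day 10.

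When the counts of each member were summed with those of every gene matching at least 10% of its windows, a choice made after the values were seen, the sums differed less in TE than most members alone. Such a sum holds the relatives as well, and where they make up most of it, it describes them and not the member. Hsd17b6 was 10% of the RNA and 10.7% of the footprints of its sum in WT at day 10, Mup3 13.2% and 21.8%, Mup20 12.3% and 15.9%, Hsd3b5 43.5% and 39.9%, Selenbp2 63.4% and 23%, and Slc22a27 1.68% and 0.141%. For Hsd17b6 with 7 genes of the Rdh family, log2 TE in BM against WT at day 10 was -0.05 in place of 3.10, and in B it was -0.21 in place of 1.38. The sum of RNA stood at 77.7% and that of footprints at 74% of WT in BM. For Selenbp2 with Selenbp1 the difference was 0.26 in place of -3.77. For Slc22a27 with 5 relatives the sum gave 0.57 at day 10 and -0.06 at day 4, values set almost wholly by the relatives. Hsd3b5 with 7 relatives gave 0.18.

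The 22 Mup genes kept a difference when summed. Their RNA was 111600 ± 39380 CPM in WT and 3271 ± 665 CPM in BM at day 10, 2.93% of WT, and their footprints were 36360 ± 10720 and 3967 ± 1332 CPM, 10.9% of WT. log2 TE of the sum was 1.83 higher in BM at day 10 and 0.90 higher at day 4, and 0.23 lower in B at day 10. At day 4 it was also higher in M (0.82) and in B (0.36), and in M at day 10 the difference was -0.10. Sult5a1 has no gene to be summed with: its footprints stood at 2.54% and its RNA at 87% of WT in BM at day 10, and no other transcript held any of its windows.

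**Figure D5:**
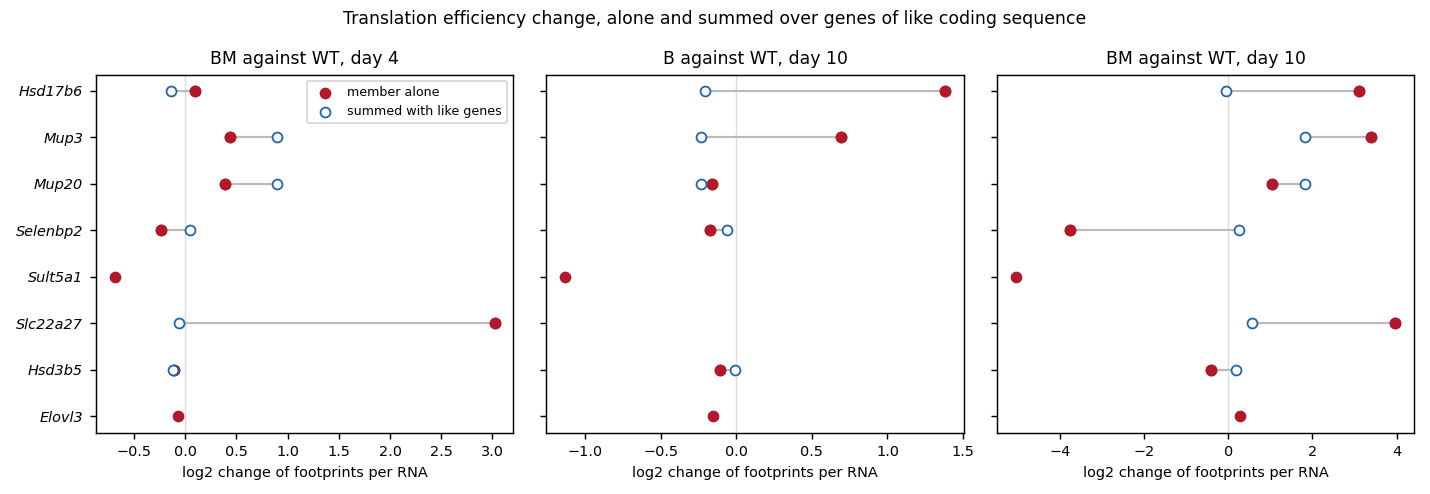
log2 change of TE against WT for each gene alone (filled) and, where relatives match at least 10% of its windows, summed with them (open), in 3 comparisons with their own horizontal scales. In BM at day 10 Hsd17b6 moved from 3.10 to -0.05 and Selenbp2 from -3.77 to 0.26, the Mup sum was 1.83 (Mup3 alone 3.39, Mup20 alone 1.03), and Sult5a1 has no open point.

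Other genes of the same biology moved as follows in RNA. Of 17 further male-biased genes, 13 of 16 tested were lower and 0 higher in BM at day 10 (median log2 change -3.16), where 45.7% of all genes were called and the median of all genes was 0.03. Mup21 (-7.39), Mup7 (-6.01) and Mup11 (-5.86) fell most. In BM at day 4, 14 of 17 were lower and 1 higher, against 41.9% of all genes called. In B at day 10, 5 were lower, led by Mup21 (-2.30), and 5 higher, led by Moxd1 (5.47), against 15.6% of genes. In M at day 10, 5 were lower and 2 higher, against 15.7%. At day 4, 11 of 17 were lower and 1 higher in M, against 23.7%, and 5 lower and 2 higher in B, against 8.14%.

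Of 22 female-biased genes, 9 were tested in BM at day 10, of which 4 rose, with Atp6v0d2 (6.31) and Cyp17a1 (2.07) first, and 5 fell, with Cyp3a16 (-1.88) first. Of 14 genes of growth hormone signalling, 8 were lower and 1 higher in BM at day 10. Among those lower were Cish (-2.69), a STAT5 target that damps the receptor, Onecut1 (-2.64) and Igfals (-2.36). Of 11 clock genes tested, 5 were higher, with Per1 (3.59) first, and 1, Clock (-0.38), was lower, a share called that is near the 45.7% of all genes. Of 12 periportal (zone 1) genes 6 were lower and 3 higher, and of 12 perivenous (zone 3) genes 9 were higher and 0 lower in BM at day 10. In B at day 10, where 15.6% of all genes were called, the 12 zone 3 genes were all higher and 8 zone 1 genes lower, with Hal (-5.55) and Cyp2f2 (-5.26) first.

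Among relatives by name, all 20 other Mup genes had lower RNA in BM on both days (median -2.50 at day 4, against 41.9% of all genes called, and -5.81 at day 10, against 45.7%). In B at day 10 it was 1 of 20, against 15.6% of all genes. The 7 tested Hsd3b relatives and the 4 tested Elovl relatives were all lower in BM at day 10 (medians -1.96 and -1.65). Of the other families in BM at day 10, 5 of 8 tested Hsd17b genes were lower and 2 higher, 1 of 6 Sult genes lower and 3 higher, 6 of 11 Slc22a genes lower and 1 higher, and Selenbp1 lower, where 45.7% of all genes were called.

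Across the 24 mice, which share genotypes and library depth, the RNA profiles most like each member were found among 9426 genes with a mean of at least 5 CPM, as Pearson correlations of log2 CPM. The BM mice of day 10, whose values chose the members, are among the 24, so genes low in the same mice rank high. Mup3 was nearest to Mup21 (r = 0.996), Mup20 to Mup4 (0.979), Hsd3b5 to Ces3a (0.992) and Slco1a1 (0.989), and Elovl3 to Hsd3b8, Fabp1 and Dbi (0.98 each). Hsd17b6 was nearest to Suds3 (0.945), Retsat (0.944) and Ces2a (0.944), Selenbp2 to C2 (0.943) and Slc22a27 to AI182371 (0.923). Sult5a1, with the fewest RNA counts beside Slc22a27, reached 0.739 with Grina.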

How the data were processed

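Livers of 24 male mice (4 genotypes, days 4 and 10, 3 mice each) gave paired ribosome footprint and cytoplasmic RNA libraries, and each sample was an individual mouse per the labels. The deposited footprint values are counts on the coding sequence of 1 transcript per gene, made by the authors after adapter trimming (cutadapt 1.18 per the submitters' processing notes), removal of duplicate molecules and alignment with BBmap to GENCODE protein-coding transcripts on GRCm39. The deposited RNA values are expected counts per isoform, estimated by the authors with Bowtie2 2.3.5.1 and RSEM 1.3.3, and at least 99.92% of those above 0 in each library were whole numbers. The deposited TPM values were read but no test or statement uses them. How multiply matching reads were assigned was not tested.

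Expected counts were summed per gene and rounded. Symbols came from GENCODE vM39, which named 20614 of 20622 genes. Differences were tested with edgeR 4.0.16 (R 4.3.3), quasi-likelihood test, TMM scaling within a library type, filterByExpr with a minimum count of 10 (minimum total 15), and Benjamini-Hochberg adjustment over all tested genes, with adjusted p under 0.1 as the call. TE was the interaction of group and library type. Fits used only the mice of the comparison. The RNA and footprint libraries of a mouse come from the same liver, and their deviations from group means correlated in every mouse (r from 0.16 to 0.603), so the fit that joins them is given wherever it changes a call. CPM are TMM-scaled over 24 libraries of a type. DESeq2 1.42.0, no filter, the counted isoform alone, replicate blocks and leaving out each mouse were the alternatives, and the scripts were tested on simulated data. Windows of 33 nt were matched with bwa 0.7.19. The members and all lists were chosen with earlier results of these data known. Genes named are the 8 members, list genes called with the largest change (up to 3 a direction), relatives by symbol or by shared windows, and the most correlated genes. A gene of the growth hormone signalling list is not reported here.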

Additional observations from a re-analysis of the deposited data

Results flagged for a closer look

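The effect of the Ctnnb1ex3/+ allele differed between days 4 and 10, by the interaction term of the edgeR fit, for 4 of the 8 genes. This term, and that for the MYC allele below, uses the WT mice of day 10, whose values entered the choice of the genes. In RNA the difference (log2, day 10 minus day 4) was -2.56 for Hsd17b6, -1.90 for Mup3, -1.10 for Hsd3b5 and -1.42 for Elovl3. In footprints it was -1.26 for Hsd17b6, -1.29 for Mup3, -1.17 for Hsd3b5 and -1.53 for Elovl3. Mean RNA in B was 131% of the WT mean for Hsd3b5 and 135% for Elovl3 at day 4, and 61.5% and 50.6% at day 10. Of these, Hsd3b5 at day 4 and Elovl3 at day 10 overlapped WT and did not pass the test. The Elovl3 RNA difference (adjusted p = 0.0639) was lost under DESeq2 (0.178) and without any 1 of 9 of the 12 mice. The effect of R26-LSL-MYC differed between the days for Hsd3b5 footprints (-0.68, adjusted p = 0.072).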

How the results depend on the processing

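Of 2179 alternative values for single genes, 2039 kept their side of the threshold and, where either fit made a call, their direction. For BM against WT at day 10 and for the sums with relatives, a kept value instead moved by less than the spread between mice. Values called in neither fit could change sign and still be counted as kept. The sum with relatives had the other sign than the called member for Slc22a27 TE in BM at day 4 (-0.0639). It also had the other sign for the TE calls made in B at day 10 with joined libraries, -0.21 for Hsd17b6 and -0.23 for Mup3. In WT at day 10 these members were 0.141% to 21.8% of their sums, so the sums do not show that a member's own direction turned. Of 275 alternative counts, 238 stayed within 1.5 times. DESeq2 called TE of 1 gene in B at day 10, RNA of 2 genes between WT days and RNA of 2 for the M effect between days. Without the low-count filter the RNA calls were 5 in B at day 4, 1 between WT days and 3 for the M effect. With the replicate block that joins the libraries of a mouse, TE calls were 3 in BM at day 4, 3 in B at day 10 and 1 for the B effect between days. Those in BM at day 4 include Slc22a27, which passed the low-count filter only through the BM mice, so its call is no support. The replicate number as a block changed no count of calls by over 1.5 times, and mice of the same number did not pair across groups (r from -0.201 to 0.232, over 0.1 in 4 of 36 pairs).

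Leaving out 1 mouse at a time gave 1 to 5 RNA and 1 to 5 footprint calls in B at day 4, 3 to 6 RNA calls and 0 to 1 TE calls in B at day 10, 1 to 3 RNA calls in M at day 10, 0 to 1 RNA and 0 to 1 footprint calls between WT days, and 0 to 3 RNA and 0 to 2 footprint calls for the M effect between days. The median size of the TE difference over the 8 genes in BM at day 10, 3.25, was 3.15 to 3.48 on leaving out a mouse and 0.431 with sums over relatives in place of the members that have them. Sult5a1 and Elovl3 enter that median alone and the Mup sum enters for both Mup3 and Mup20, and since relatives make up most of several sums, it says little about the 8 genes. Depth limits Slc22a27 and Sult5a1, with 3 to 45 and 11 to 46 RNA counts a mouse, and Hsd3b5 and Elovl3 in BM at day 10.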
